A study of Mus musculus with 18 samples.

Results

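Collagens are the extracellular matrix proteins whose chains wind into triple helices, each kind of chain being the product of a gene of its own. The deposited table held 43 genes with a symbol of the alpha-chain form (Col, a type number, a, a chain number) among 18909 genes, and those 43 are described here. Sorted by the structures their proteins are known to build, 11 were fibrillar collagens, 8 belonged to basement membranes, 9 were FACIT collagens (fibril-associated collagens with interrupted triple helices), 6 were beaded-filament collagens (the type VI chains) and 9 were of other kinds.

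RNA was measured in 2 mouse cell lines from C57BL6 mice, E0771 mammary tumour cells and B16F10 melanoma cells, grown in RPMI with fetal bovine serum. Each line carried MRTFB, MRTFA or a control in the pRetrox vector, and cells of all 6 groups, controls included, received 500 ng/mL of doxycycline, the drug that switches the transgene on, for 48 h. The comparisons ask which collagen genes change when MRTFB or MRTFA, partners of the transcription factor SRF, is overexpressed. Each group had 3 libraries of 27607055 to 37116655 reads, and since the labels do not say whether replicates were separate cultures, p-values measure the spread between these libraries, which may be technical.

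Fibrillar collagens such as types I, III and V form the banded fibrils of connective tissue, type IV collagen forms the sheet-like network of basement membranes, type VI collagen forms beaded filaments near cell surfaces, and FACIT collagens sit on fibrils. Some helices, though not all, join chains of different genes: Col1a1 can pair with Col1a2, Col4a1 with Col4a2, Col5a1 with Col5a2, and Col6a1 with Col6a2 and a further type VI chain. In type IV collagen, the Col4a3, Col4a4 and Col4a5 chains assemble together, and Col4a5 chains also assemble with Col4a6 chains.

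Values are scaled reads (a gene's reads divided by the library's size factor) unless a sentence says otherwise. Fold changes are on the log2(scaled reads + 1) scale, which understates the change of low genes. A gene was tested in a line where at least 3 of its 9 libraries had 10 or more scaled reads, and "rose" or "fell" is kept for a Benjamini-Hochberg adjusted p under 0.05 over all genes tested (limma, two-sided). By that filter 29 members were tested in E0771, 29 in B16F10 and 37 in at least 1 line, and 6 in neither.

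Mkl1, the table's symbol for the gene of MRTFA, averaged 13728 ± 2454 in E0771 MRTFA libraries and 1349 ± 202 in E0771 controls (SD, n = 3 in every group here and below; adjusted p = 4.68e-07, limma). Mkl2, the gene of MRTFB, averaged 2158 ± 87.9 in E0771 MRTFB libraries and 1344 ± 106 in E0771 controls (adjusted p = 0.0306). In B16F10 neither passed: Mkl1 averaged 1205 ± 266 in libraries labelled MRTFA and 1015 ± 83.3 in controls, and Mkl2 averaged 1886 ± 128 in libraries labelled MRTFB and 1501 ± 329.7 in controls (adjusted p = 0.856 and 0.503). Directions in B16F10 therefore rest on the labels alone. The 7 melanocyte markers summed to 369 to 636 in E0771 libraries and 561637 to 757748 in B16F10 libraries, the 4 mammary epithelial markers in the table to 5819.9 to 17020.1 in E0771 and 18.1 to 127 in B16F10, and the 2 immune markers in the table to at most 18.8 in any library.

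**Figure D1:**
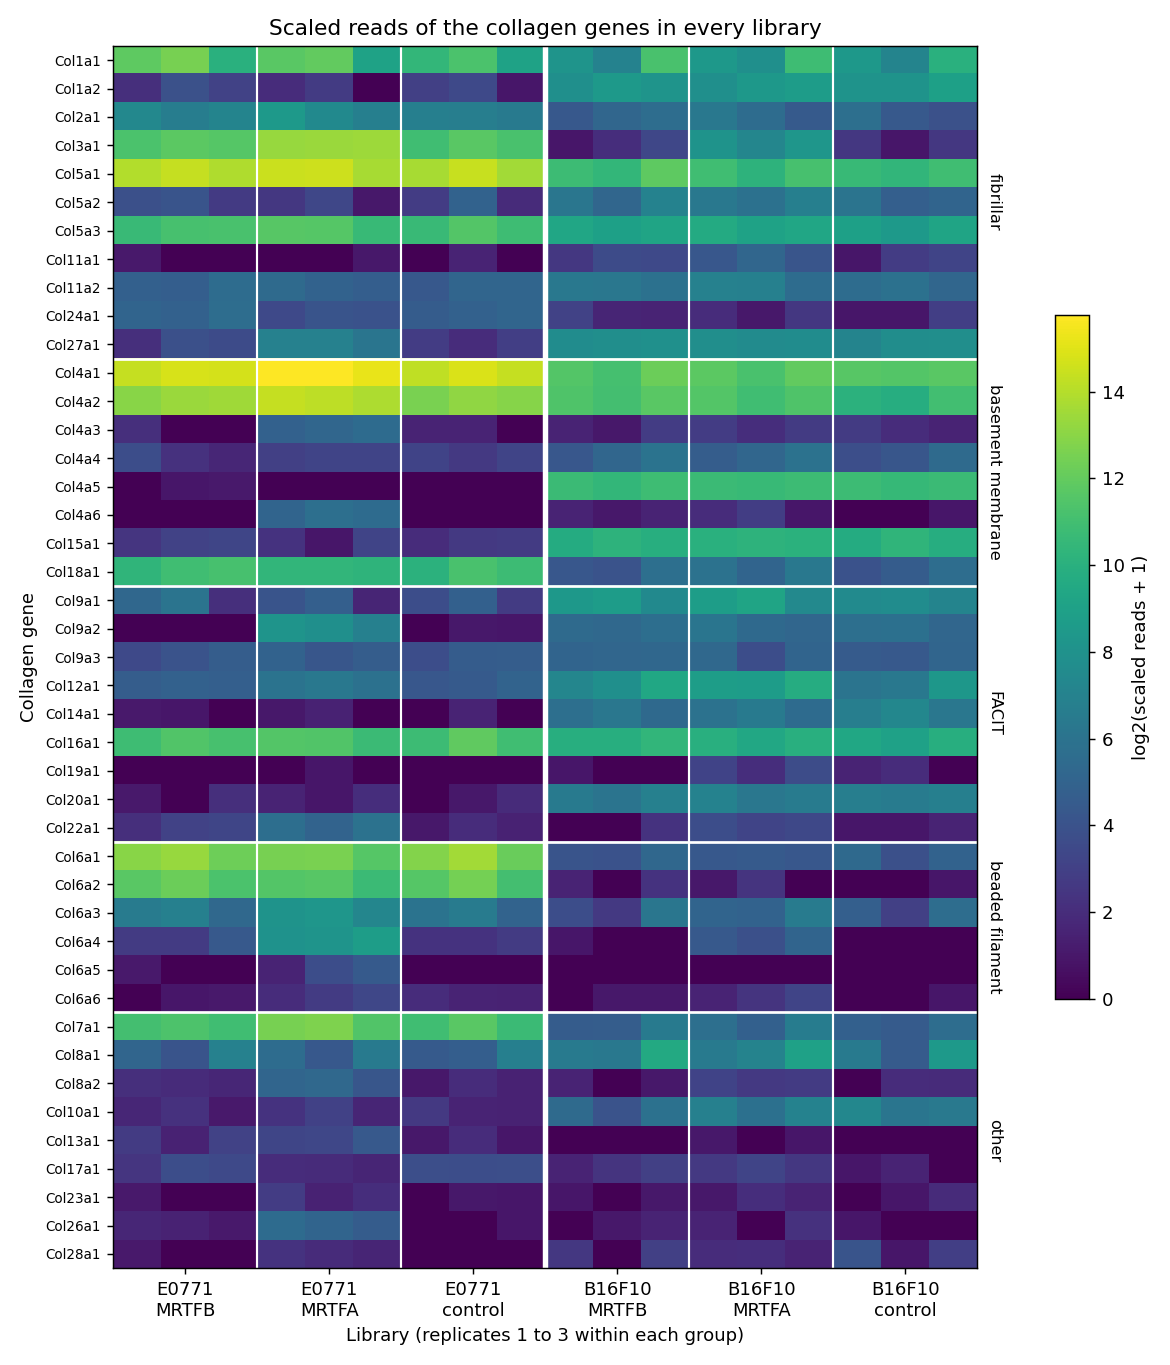
Colour gives log2(scaled reads + 1) of each of the 43 collagen genes (rows, grouped by class) in each of the 18 libraries (columns, 3 per group). Col4a5 and Col15a1 are high in the B16F10 columns and low in E0771, Col6a1, Col6a2 and Col7a1 the reverse, and the E0771 MRTFA columns stand above their controls for Col9a2, Col6a4, Col4a6 and Col27a1.

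The control libraries of the lines held different collagen repertoires. Collagen genes took 0.226% ± 0.0723 of all reads in E0771 controls and 0.0402% ± 0.00724 in B16F10 controls, with ranges of 0.184% to 0.31% and 0.0337% to 0.0481% that did not overlap. In both lines basement membrane genes were the largest class, at 46.5% ± 5.19 of collagen reads in E0771 controls and 60.03% ± 4.38 in B16F10 controls. Beaded-filament genes made up 15.8% ± 3.69 of collagen reads in E0771 controls and 0.438% ± 0.2096 in B16F10 controls, and FACIT genes 3.51% ± 0.424 and 10.9% ± 0.4304.

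**Figure D2:**
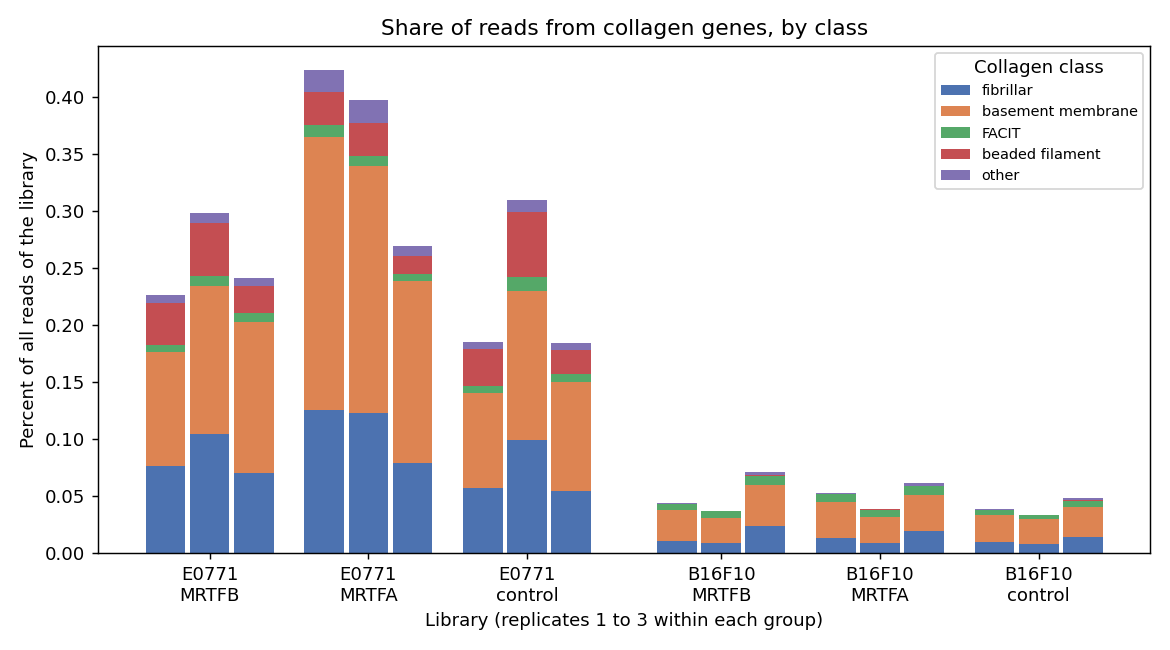
Stacked bars give the percent of all reads of each library that came from collagen genes, by class, with 3 libraries per group. E0771 MRTFA libraries reach 0.27% to 0.424%, E0771 controls 0.184% to 0.31%, and the B16F10 libraries stay at or below 0.0715%.

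Of the 37 members tested over both lines, 27 differed between E0771 and B16F10 controls, 14 higher and 13 lower in E0771. That is 73.0% of the members, where 70.2% of all 14859 genes tested differed (33.4% higher and 36.8% lower), so the count alone does not set collagens apart.

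Type VI genes were among those higher in E0771. Col6a1 averaged 7993 ± 3913 in E0771 controls and 28.2 ± 13.5 in B16F10 controls (log2 8.11, SE 0.43, adjusted p = 2.46e-11, limma). Col6a2 had 10953 reads over the 3 E0771 controls and 1 over the 3 B16F10 controls, a ratio of 11140 with a 95% counting interval of 1999 to 440050. Such intervals cover counting error only. Col6a3 averaged 61.8 ± 29.7 in E0771 controls and 27.2 ± 20.96 in B16F10 controls and did not pass (log2 1.40, 95% interval −0.28 to 3.08). In bulk RNA, fewer cells that express a gene and less RNA per cell cannot be told apart.

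Col3a1, the chain of type III fibrils, averaged 2562 ± 744 in E0771 controls and 3.52 ± 2.204 in B16F10 controls (log2 9.27, SE 0.48, adjusted p = 1.98e-11). Col7a1, whose protein forms the anchoring fibrils of skin, averaged 2347 ± 902 in E0771 controls and 33.3 ± 14.4 in B16F10 controls (log2 6.11, SE 0.51, adjusted p = 1.01e-08). Col18a1, whose protein is the source of endostatin, averaged 1774 ± 643 in E0771 controls and 28.5 ± 17.2 in B16F10 controls (log2 6.01). The ranges of these genes did not overlap between lines. The others higher in E0771 were Col5a1 (3.25), Col24a1 (3.24), Col17a1 (2.93), Col4a1 (2.85), Col4a2 (2.54), Col6a4 (2.46), Col5a3 (2.15), Col2a1 (1.97) and Col16a1 (1.77) on the log2 scale.

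Genes lower in E0771 were led by Col4a5, which had 0 reads in all 3 E0771 controls and 1812, 1536 and 1706 scaled reads in B16F10 controls, at least 1720-fold lower when 3 reads over the group are taken as the floor. Col15a1, a basement membrane proteoglycan, averaged 4.54 ± 1.35 in E0771 controls and 1003 ± 228 in B16F10 controls (log2 −7.51, SE 0.41, adjusted p = 3.61e-11). Col1a2, the partner chain in type I collagen, averaged 5.999 ± 4.63 in E0771 controls and 348 ± 127 in B16F10 controls (log2 −5.91). The rest were Col14a1 (−6.24), Col20a1 (−5.71), Col27a1 (−4.98), Col9a2 (−4.93), Col10a1 (−4.70), Col9a1 (−3.70), Col12a1 (−2.35), Col5a2 (−2.08), Col11a1 (−1.81) and Col4a4 (−1.46). By class, 5 of 8 tested FACIT, 4 of 11 fibrillar, 3 of 8 basement membrane, 0 of 4 beaded-filament and 1 of 6 other genes were lower. Of all genes tested 36.8% were lower, and nothing is read from these counts by class.

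Per kb of merged exon (GENCODE M21), Col4a1 was the leading collagen gene of both lines, at 3152 ± 776 scaled reads per kb in E0771 controls and 429 ± 36.1 in B16F10 controls. In E0771 controls it was followed by Col5a1 at 1875 ± 655, Col6a1 at 1825 ± 893 and Col4a2 at 1134 ± 207 per kb, and the first 2 of these change places when the longest transcript gives the length. In B16F10 controls Col4a5 at 251 ± 20.8, Col4a2 at 205 ± 91.5 and Col5a1 at 191 ± 32.9 per kb followed, and both neighbours of Col4a2 in that order lie within its SD.

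Partner chains stood at unlike levels in E0771 controls. Col1a2 was 0.00191 ± 0.00091 of Col1a1 per kb in E0771 controls and 0.585 ± 0.423 in B16F10 controls, where the libraries ranged from 0.252 to 1.06. With the longest transcript as length, Col1a2 averaged 65.02 and Col1a1 84.5 per kb in B16F10 controls. Col5a2 was 0.0006 ± 0.00052 of Col5a1 per kb in E0771 controls and 0.0229 ± 0.0115 in B16F10 controls. In E0771 controls Col4a2 came closer to its partner than these 2, at 0.364 ± 0.0349 of Col4a1 per kb. In B16F10 controls it was at 0.469 ± 0.173, within the range of Col1a2 to Col1a1.

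With MRTFA in E0771, 14 of the 29 members tested rose and 2 fell. That is 55.2%, where 38.4% of all 13189 genes tested passed (20.3% rose and 18.1% fell). The median log2 fold change was 0.92 over the tested members and −0.02 over all tested genes, and the members' median was the same with Col4a6, unread in controls, placed at its lower bound. Of the 14 that rose, 8 (Col4a3, Col4a6, Col6a4, Col8a2, Col9a2, Col22a1, Col26a1 and Col27a1) passed the filter only through the MRTFA libraries. A higher value with MRTFA is built into their count and into the members' median, so that median is not read as a result. Of the 19 members at 10 or more in every control library, 6 rose and 2 fell, where 17.1% of all such genes rose and 20.1% fell. Col17a1, 1 of the 2, reached 10 in every library of no other group, so its fall is partly built in. Collagen genes took 0.364% ± 0.0824 of all reads in MRTFA libraries and 0.226% ± 0.0723 in controls, with overlapping ranges.

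By class, 4 of 5 tested basement membrane genes rose, 2 of 9 fibrillar genes rose and 1 fell, 3 of 6 FACIT genes rose, 2 of 4 beaded-filament genes rose, and 3 of 5 other collagens rose and 1 fell. Of all genes tested 20.3% rose and 18.1% fell. The 8 members that passed the filter only through the MRTFA libraries are in these counts, in every class, so nothing is read from the counts by class. Marker sums moved with MRTFA too. The 4 epithelial markers summed to 14980.2 to 17020.1 in MRTFA libraries and 5819.9 to 7901 in controls. Most of that was Krt8 (15549 ± 1021 with MRTFA and 6719.8 ± 1053 in controls), and Krt7 was higher too (330 ± 23.2 and 87.5 ± 11.1). Epcam averaged 33.5 ± 15.3 with MRTFA and 42.1 ± 23.4 in controls, and Cdh1 averaged 6.96 ± 2.25 and 4.57 ± 0.498. The 6 fibroblast markers in the table summed to 1488 to 1664 in MRTFA libraries and 1876 to 2024 in controls. They did not move together: Pdgfra averaged 362 ± 47.1 with MRTFA and 909 ± 92.8 in controls, while Pdgfrb averaged 1215 ± 49.2 and 1015 ± 133. The other 4 had a mean under 10 in both groups, with Dcn and Thy1 at 0 in the controls. The 3 endothelial markers in the table summed to 327 to 401 in MRTFA libraries and 17.02 to 24.3 in controls. Most of that was Vwf (341 ± 37.2 with MRTFA and 5.15 ± 3.21 in controls), while Cdh5 averaged 5.12 ± 5.53 with MRTFA and 4.85 ± 2.47 in controls. The 2 immune markers summed to 14.9 to 18.8 in MRTFA libraries and 6.01 to 12.1 in controls. The part of these cell types in the collagen changes was not tested.

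Col4a1 and Col4a2, the chains of the common type IV network, lie head to head on chromosome 8 and overlap by 22 bp. Col4a1 had 55448, 54477 and 38227 scaled reads with MRTFA in E0771, against 19345, 30136 and 21096 in the controls. Each MRTFA library stood above each control (log2 1.08, SE 0.19, adjusted p = 0.00154, limma). Col4a2 had 20926, 18802 and 14648 with MRTFA, against 6130.1, 8877 and 7505 in controls, again without overlap (log2 1.27, SE 0.18, adjusted p = 0.000325). Col4a2 was 0.416 ± 0.0231 of Col4a1 per kb with MRTFA and 0.364 ± 0.0349 in controls. Whether strand was used in counting is not known here, so reads from the overlap could go to either gene.

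Col4a6 had 32.9, 52.02 and 43.9 with MRTFA in E0771, against 0 in every control. These were 131 reads, at least 44.02-fold more than 3 reads over the control group (adjusted p = 1.26e-06, limma). Its head-to-head neighbour on the X chromosome, Col4a5, which starts 1308 bp away and makes a partner chain, was at 0 in all 3 MRTFA libraries and all 3 controls. Col4a3 had 28.9, 36.2 and 44.9 with MRTFA, against 2.01, 2.003 and 0 in controls (log2 4.15, SE 0.64, adjusted p = 0.000566). Col4a4, which faces Col4a3 across 71 bp on chromosome 1, was under the filter in E0771, at 7.897 ± 0.801 with MRTFA and 7.16 ± 1.87 in controls. Col18a1 averaged 1307 ± 58.5 with MRTFA and 1774 ± 643 in controls (log2 −0.37, 95% interval −0.96 to 0.21).

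**Figure D3:**
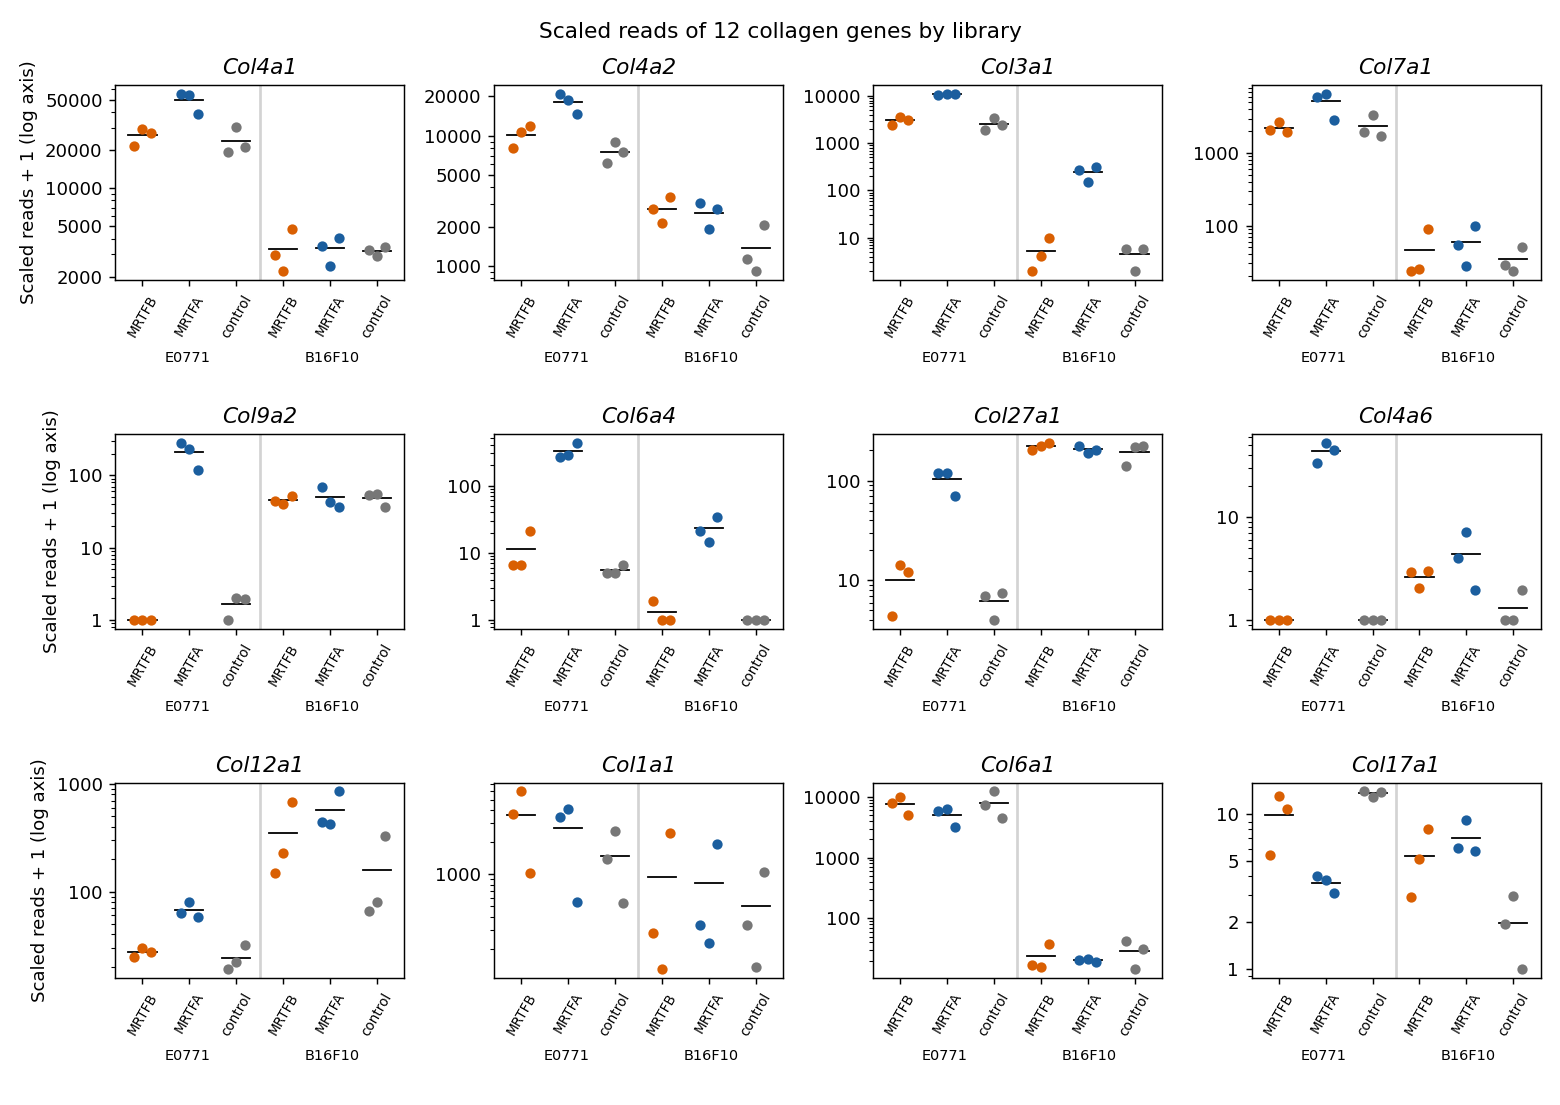
Each panel shows 1 gene, with 1 point per library (scaled reads + 1, log axis), a bar at the group mean, and the E0771 groups left of the B16F10 groups. Col3a1 and Col6a4 stand above the controls in the MRTFA libraries of both lines, and Col9a2 and Col4a6 reach their highest E0771 values with MRTFA.

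Among fibrillar genes, Col3a1 (ENSMUSG00000026043.18, GRCm38 chromosome 1, 45311538 to 45349706, plus strand) had 10482, 10759 and 11128 scaled reads with MRTFA in E0771, against 1919, 3377 and 2391 in the controls. The MRTFA libraries lay close together and above all controls (log2 2.11, SE 0.19, adjusted p = 1.07e-05, limma). Col27a1, a fibrillar collagen of cartilage, had 119, 119 and 68.96 with MRTFA, against 6.04, 3.004 and 6.54 in controls, without overlap (log2 4.07, SE 0.47, adjusted p = 7.49e-05). Col24a1, a fibrillar collagen known from bone, fell to 13.5 ± 3.09 with MRTFA, against 28.6 ± 5.25 in controls (log2 −1.04, SE 0.30, adjusted p = 0.0189). The Col24a1 call was lost without MRTFA replicate 1 (−0.85) or control replicate 3 (−0.92).

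The abundant fibrillar genes did not pass. Col5a1 averaged 20138 ± 5852 with MRTFA in E0771 and 15920.1 ± 5558 in controls (log2 0.35, 95% interval −0.24 to 0.93), and Col5a3 averaged 2629 ± 899 with MRTFA and 2179 ± 721 in controls (log2 0.25, −0.39 to 0.89). Col1a1 averaged 2698 ± 1890.4 with MRTFA and 1482 ± 1003 in controls, with an interval that spans large changes either way (log2 0.68, −1.20 to 2.56). Its partner Col1a2 was under the filter in E0771, at 2.85 ± 2.79 with MRTFA and 5.999 ± 4.63 in controls. Col5a2, Col2a1 and Col11a2 had log2 fold changes of −0.91, 0.92 and 0.18 and did not pass.

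The FACIT gene Col9a2 (ENSMUSG00000028626.5, GRCm38 chromosome 4, 121039385 to 121055322, plus strand), for a chain of the type IX collagen of cartilage, had the largest fold change of the tested members on the log2(scaled reads + 1) scale. It had 282, 233 and 116 scaled reads with MRTFA in E0771, against 0, 1.001 and 0.934 in controls (log2 6.98, SE 0.43, adjusted p = 8.15e-07, limma). Over the groups these were 645 reads against 2, a ratio of 325 with a 95% counting interval of 89.6 to 2690.1. The partner chains Col9a1 and Col9a3 did not pass (log2 −0.26 and 0.29), and exons of Col9a3 overlap those of Tcfl5 on the other strand.

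Of the other FACIT genes, Col22a1, known from muscle-tendon junctions, had 49.8, 31.6 and 61.6 with MRTFA in E0771, against 1.007, 3.004 and 1.87 in controls (log2 4.05, SE 0.43, adjusted p = 3.87e-05, limma). Col12a1, found on fibrils of tendon and stroma, had 61.8, 78.96 and 57.5 with MRTFA, against 18.1, 21.03 and 30.8 in controls (log2 1.48, SE 0.26, adjusted p = 0.00134). Neither gene's groups overlapped. Col16a1, the FACIT gene with the most scaled reads per kb in E0771 controls, averaged 2513 ± 725 with MRTFA and 2512 ± 1099 in controls (log2 0.04, 95% interval −0.62 to 0.70).

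Type VI genes did not move together. Col6a4, for a chain that can take the place of the Col6a3 chain in mouse, had 264, 283 and 433 scaled reads with MRTFA in E0771, against 4.03, 4.01 and 5.61 in controls (log2 5.86, SE 0.43, adjusted p = 3.04e-06, limma). Col6a3 rose to 244 ± 82.4 with MRTFA, against 61.8 ± 29.7 in controls (log2 2.02, SE 0.46, adjusted p = 0.00619). The chains common to all type VI helices did not pass: Col6a1 averaged 5080.4 ± 1688 with MRTFA and 7993 ± 3913 in controls (log2 −0.60, 95% interval −1.43 to 0.23), and Col6a2 averaged 2626 ± 815 with MRTFA and 3611 ± 1812 in controls (log2 −0.40, −1.19 to 0.40). Per kb, Col6a3 ranged over 0.0166 to 0.0184 of Col6a1 with MRTFA and 0.00257 to 0.00317 in controls, without overlap.

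Of the other collagens, Col8a2, a short-chain collagen of the corneal endothelium's basement layer, had 33.9, 39.9 and 17.8 with MRTFA in E0771, against 1.007, 3.004 and 1.87 in controls (log2 3.39, SE 0.41, adjusted p = 0.000104, limma). Col26a1 had 44.8, 33.4 and 22.99 with MRTFA, against 0, 0 and 0.934 in controls, or 103 reads against 1, a ratio of 104 with a 95% counting interval of 18.2 to 4140.3 (adjusted p = 1.13e-05). Neither gene's groups overlapped. Col7a1 rose to 5151 ± 1975 with MRTFA, against 2347 ± 902 in controls (log2 1.11, SE 0.31, adjusted p = 0.0175), and this call was lost without MRTFA replicate 1 (0.96) or 2 (0.89) or control replicate 1 (1.0103) or 3 (0.92). Col17a1, a transmembrane collagen of hemidesmosomes, fell to 2.62 ± 0.471 with MRTFA, against 12.7 ± 0.617 in controls (log2 −1.93, SE 0.38, adjusted p = 0.00253), which is 8 reads against 39.

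MRTFB in E0771 called none of the 29 members, where 0.144% of all genes tested passed (19 of 13189), and edgeR, DESeq2 and the fit with replicate number as a block also called 0. At an unadjusted p under 0.05 limma gave 3 members, 10.3% of those tested, and 2.54% of all genes. These were Col4a2, Col22a1 and Col26a1. Col4a2 had 8022, 10661 and 11801 with MRTFB, against 6130.1, 8877 and 7505 in controls, with overlap (log2 0.44, 95% interval 0.03 to 0.84). Log2 fold changes and intervals of other abundant genes were 0.16 (−0.27 to 0.59) for Col4a1, 0.28 (−0.13 to 0.70) for Col3a1 and 0.18 (−0.41 to 0.76) for Col5a1. Col1a1 averaged 3549 ± 2472 with MRTFB and 1482 ± 1003 in controls, with an interval of −0.69 to 3.07. MRTFB over control libraries of the same number, 2.67, 2.35 and 1.895, were all above 1, and with the replicate block it did not pass (log2 1.19, SE 0.19, adjusted p = 0.0521, limma). The median was 0.18 over the tested members and −0.01 over all tested genes. Both E0771 comparisons with control share the control libraries. Mkl2 averaged 2158 ± 87.9 with MRTFB and 1344 ± 106 in controls. A small effect of MRTFB and a small rise in its level cannot be told apart.

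MRTFB and MRTFA libraries of E0771 differed for 16 of 29 members, 2 higher and 14 lower with MRTFB, where 33.6% of all genes differed (14.5% higher and 19.1% lower). Of the 14, 8 had passed the filter only through the MRTFA libraries, so that a lower value with MRTFB is built into their count. Of the 19 members at 10 or more in every control library, 2 were higher and 6 lower with MRTFB, where 16.1% of all such genes were higher and 16.1% lower. The lower ones were Col9a2 (−7.63), Col4a6 (−5.43), Col6a4 (−5.04), Col4a3 (−4.50), Col26a1 (−3.64), Col27a1 (−3.46), Col8a2 (−2.99), Col22a1 (−2.71), Col3a1 (−1.83), Col6a3 (−1.63), Col12a1 (−1.28), Col7a1 (−1.12), Col4a1 (−0.91) and Col4a2 (−0.84) on the log2 scale, and the higher ones Col24a1 (1.39) and Col17a1 (1.36). Col3a1, for example, had 2486, 3571 and 3145 with MRTFB, against 10482, 10759 and 11128 with MRTFA. Col9a2 and Col4a6 were at 0 in every MRTFB library. In E0771, Mkl1 averaged 13728 ± 2454 with MRTFA and 1349 ± 202 in controls, and Mkl2 2158 ± 87.9 with MRTFB and 1344 ± 106 in controls. A difference between MRTFB and MRTFA and a difference in their levels therefore cannot be told apart.

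For the members whose libraries are given above for MRTFA, every MRTFB library of E0771 was under every MRTFA library. These members were picked by a low adjusted p against control, and 8 of them passed the filter only through the MRTFA libraries. That order is therefore partly built in, and the share of all genes that show it was not counted. Col6a4 had 5.63, 5.65 and 19.9 with MRTFB, against 264, 283 and 433 with MRTFA. Col27a1 had 3.38, 13.2 and 11.03 with MRTFB, and Col12a1 had 23.6, 29.2 and 26.5. The genes with few reads in controls had few with MRTFB too. Col4a3 had 3.38, 0 and 0, Col26a1 had 2.25, 1.88 and 1.103 and Col8a2 had 3.38, 2.82 and 2.21 with MRTFB. Col22a1 had 3.38, 7.53 and 8.83 with MRTFB, which were 3, 8 and 8 reads, against 1, 3 and 2 reads in the controls. Col4a1 had 21666, 29098 and 27356 with MRTFB, all under its lowest MRTFA library.

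With replicate number as a block 19 members differed, 5 higher and 14 lower, where 43.8% of all genes did (20.6% higher and 23.2% lower), and Col5a2 (1.23), Col6a1 (0.60) and Col6a2 (0.46) were the additional ones. Without a block, calls were lost for Col17a1 without MRTFB replicate 2 (1.11) or 3 (1.25), for Col6a3 without MRTFB replicate 3 (−1.18) or MRTFA replicate 1 (−1.52) or 2 (−1.42), and for Col7a1 without MRTFB replicate 1 (−1.08) or 3 (−1.03) or MRTFA replicate 1 (−0.97) or 2 (−0.90).

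In B16F10 libraries labelled MRTFA, Col3a1 and Col6a4 rose and no other of the 29 members passed. That is 6.90%, where 1.55% of all 13517 genes tested passed (1.34% rose). Both had passed the filter on low values only through those libraries, as had Col6a3 and Col11a1. Col3a1 had 270.2, 149 and 316 in libraries labelled MRTFA, against 4.81, 0.974 and 4.77 in controls, or 743 reads against 11 (log2 5.86, SE 0.62, adjusted p = 0.000707, limma). Col6a4 had 20.2, 13.5 and 33.4 in libraries labelled MRTFA, against 0 in every control, at least 23.5-fold more than 3 reads over the group (adjusted p = 0.000878). The median was 0.55 over the members, also with Col6a4 at its bound, and −0.01 over all tested genes. Members that passed the filter only through the libraries labelled MRTFA count toward the 0.55, so it is not read as a result. The 3 endothelial markers summed to 268 to 322 in libraries labelled MRTFB, 359 to 651 in those labelled MRTFA and 689 to 922 in controls, nearly all Vwf, with Cdh5 at 0 in controls. The 4 epithelial markers summed to 18.1 to 49.1 in libraries labelled MRTFB, 83.8 to 127 in those labelled MRTFA and 33.4 to 76.96 in controls. Of these, Krt7 averaged 57.4 ± 27.9 in libraries labelled MRTFA and 2.89 ± 1.67 in controls and did not pass without the replicate block (with it, log2 3.90), Cdh1 averaged 33.9 ± 1.64 and 55.99 ± 24.8, and Epcam was at 0 in controls. The 6 fibroblast markers summed to 589 to 1023 in libraries labelled MRTFB, 557 to 988 in those labelled MRTFA and 467 to 1083 in controls, and the 2 immune markers to at most 12.4. The part of these cell types in the B16F10 results was not tested.

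Libraries of 1 replicate number deviated together in B16F10. With the number as a block, 8 members were higher and 1 lower in libraries labelled MRTFA, where 6.33% of all genes passed (3.98% higher and 2.35% lower). Besides Col3a1 and Col6a4 these were Col11a1 (2.22), Col12a1 (2.17), Col9a1 (1.009), Col4a2 (0.98), Col11a2 (0.88), Col5a3 (0.46) and Col14a1 (−0.78) on the log2 scale. Col3a1, Col6a4 and Col11a1 had passed the filter only through the libraries labelled MRTFA, so a higher value is built into that count. Col12a1 had 149, 226 and 681 in libraries labelled MRTFB, 445, 421 and 852 in those labelled MRTFA and 65.4, 79.8 and 329 in controls, where control replicate 3 stood far above the other two. Without that library and with no block, Col12a1 (2.89) and Col4a2 (1.32) passed as well. That fit kept replicate 3 labelled MRTFA, also the highest of its group for Col12a1, and gave larger folds than the block (2.17 and 0.98). Col4a1 averaged 3341 ± 832 in libraries labelled MRTFA and 3205 ± 269 in controls (log2 0.03, 95% interval −0.54 to 0.60), and Col4a2 was 0.873 ± 0.107 of Col4a1 per kb in libraries labelled MRTFA and 0.469 ± 0.173 in controls. Col4a5 averaged 1689 ± 96.7 in libraries labelled MRTFA and 1685 ± 139.6 in controls (log2 0.01, −0.25 to 0.26).

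For MRTFB in B16F10 none of the 29 members passed, where 0.126% of all genes did (17 of 13517). edgeR and DESeq2 called 0 members, and 4 members (Col4a2, Col10a1, Col14a1 and Col16a1; 13.8%) had an unadjusted limma p under 0.05, as did 8.87% of all genes. With the replicate block 6 passed, 4 higher and 2 lower, where 4.46% of all genes did (1.63% higher and 2.83% lower). They were Col12a1 (1.24), Col4a2 (1.07), Col9a1 (0.75), Col16a1 (0.59), Col14a1 (−0.95) and Col10a1 (−1.48) on the log2 scale. Col4a2 had 2714, 2118 and 3367 in libraries labelled MRTFB, against 1123, 906 and 2046 in controls, without overlap, and passed without control replicate 3 and with no block (1.41). That fit kept replicate 3 labelled MRTFB, also the highest of its group. In libraries labelled MRTFA Col4a2 had 3029.9, 1922 and 2733, which overlaps the controls. Col3a1 had 0.953, 3.11 and 9.02 in libraries labelled MRTFB and Col6a4 0.953, 0 and 0, all under 10. Exons of Col10a1 overlap Nt5dc1 on the other strand, so its reads may include that gene's. Both B16F10 comparisons with control share the control libraries.

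Of the members that rose with MRTFA in E0771, 5 (Col22a1, Col8a2, Col4a6, Col4a3 and Col26a1) were under the filter in B16F10. Col22a1 had 0, 0 and 4.01 in libraries labelled MRTFB, 12.1, 8.28 and 9.54 in those labelled MRTFA and 0.962, 0.974 and 1.91 in controls. Col8a2 had 1.91, 0 and 1.002 in libraries labelled MRTFB, 8.07, 5.17 and 5.72 in those labelled MRTFA and 0, 2.92 and 2.86 in controls. Both stood above the controls in each library labelled MRTFA, with no test in this line. Col4a6 had 1.91, 1.04 and 2.004 in libraries labelled MRTFB, 3.02, 6.21 and 0.954 in those labelled MRTFA and 0, 0 and 0.955 in controls. Col4a3 had 1.91, 1.04 and 6.01 in libraries labelled MRTFB, 6.05, 3.104 and 5.72 in those labelled MRTFA and 5.77, 2.92 and 1.91 in controls. All 3 groups overlapped for Col4a3. Col26a1 had 0, 1.04 and 2.004 in libraries labelled MRTFB, 2.02, 0 and 3.81 in those labelled MRTFA and 0.962, 0 and 0 in controls. The abundant chain Col4a1 had 2944, 2208 and 4759 in libraries labelled MRTFB, 3524, 2433 and 4066 in those labelled MRTFA and 3235, 2922 and 3458 in controls, with overlap between all groups.

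Set directly against B16F10 libraries labelled MRTFA, those labelled MRTFB were lower for Col3a1 (log2 −5.76, SE 0.62, adjusted p = 0.00128, limma) and Col6a4 (log2 −4.13, SE 0.49, adjusted p = 0.00193), 2 of 29 members where 1.09% of all genes differed (1.08% lower). Both had passed the filter only through the libraries labelled MRTFA, so nothing is read from that count. With the replicate block Col10a1 (−1.44) was lower as well, where 2.66% of all genes differed (2.56% lower).

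Col3a1 and Col6a4 thus rose with MRTFA in E0771 and in B16F10 libraries labelled MRTFA, and stretches before their starts are shown for that reason. RefSeq promoter windows (GRCm38.p6, 250 bases before to 50 after a start) were found for 34 members. They were searched for the CArG box, which SRF binds, and on both strands for GGAATG, the core of the TEAD factor site. A CArG box stood in 1 member, Col6a4, and in 1.63% of all 32851 windows. GGAATG stood in 5 members (Col3a1, Col4a6, Col6a2, Col18a1 and Col20a1) and in 14.7% of all windows. No member held both. The sequences run 5′ to 3′ on the gene's strand, and capitals mark the CArG box of Col6a4, 211 to 202 bases before the RefSeq start, and the reverse complement of GGAATG in Col3a1, 168 to 163 bases before it. A match in letters is a description and shows no binding.
Col6a4, chr9:106096784-106096941, minus strand: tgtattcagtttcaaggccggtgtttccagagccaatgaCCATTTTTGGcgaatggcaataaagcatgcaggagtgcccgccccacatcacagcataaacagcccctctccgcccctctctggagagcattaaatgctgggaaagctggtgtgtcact
Col3a1, chr1:45311288-45311537, plus strand: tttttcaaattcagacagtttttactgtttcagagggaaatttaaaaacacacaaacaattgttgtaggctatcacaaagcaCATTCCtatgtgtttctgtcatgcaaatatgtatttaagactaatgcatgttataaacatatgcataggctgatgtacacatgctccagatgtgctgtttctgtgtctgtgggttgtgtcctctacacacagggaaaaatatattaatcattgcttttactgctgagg

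**Figure D4:**
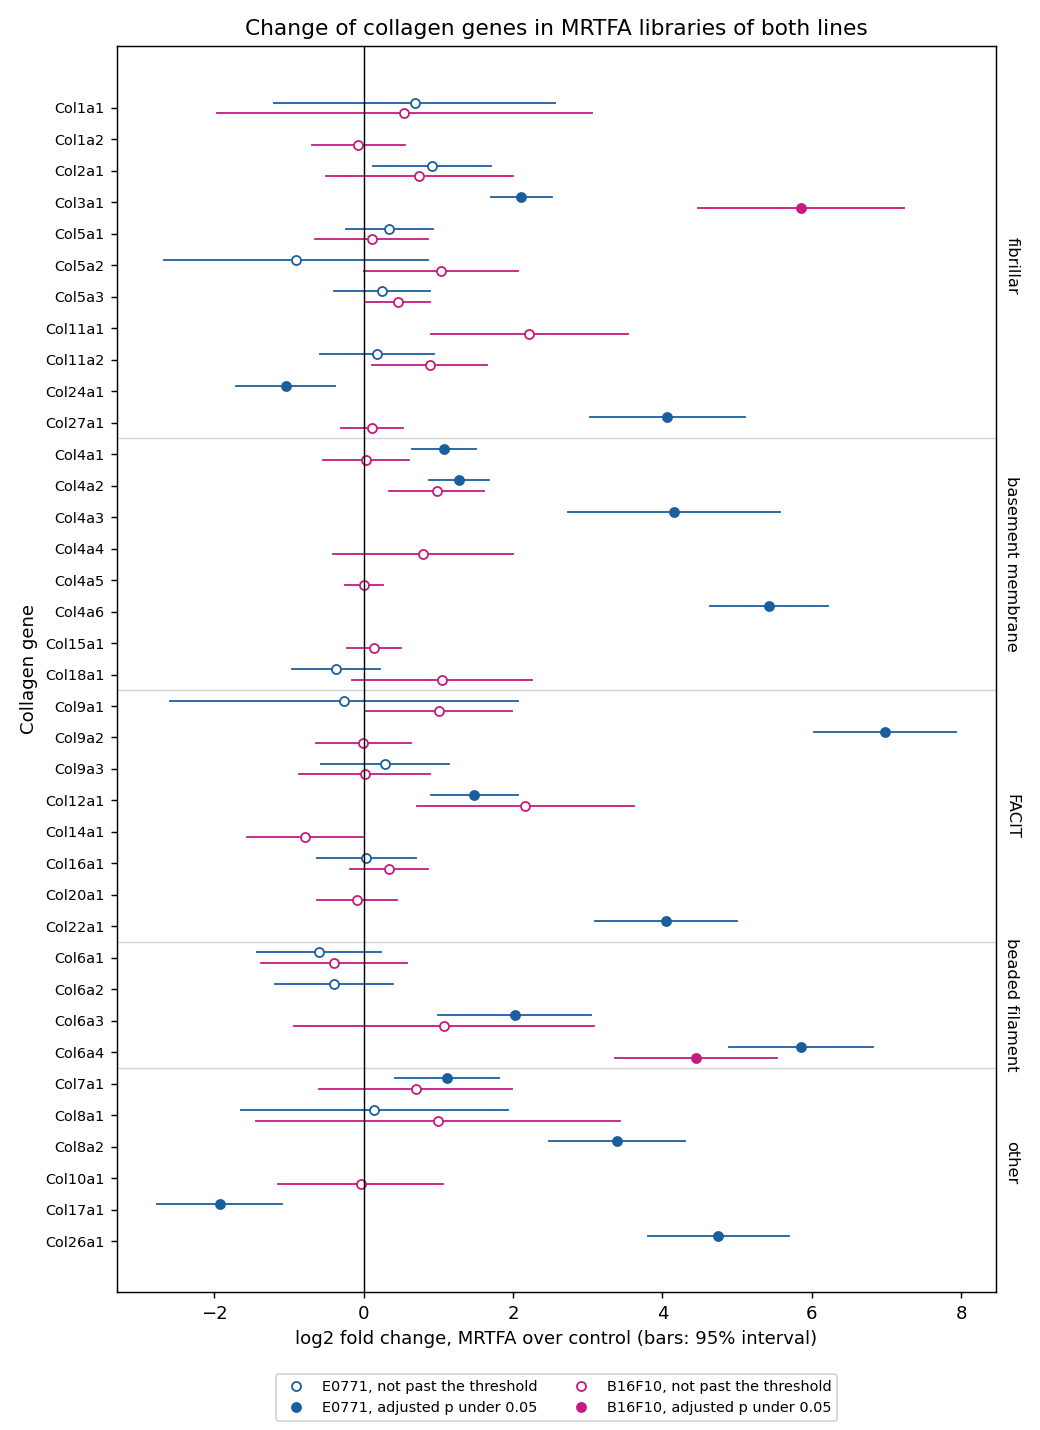
Points give the log2 fold change of each tested member in MRTFA over control libraries with 95% intervals, for E0771 and for B16F10, filled where the adjusted p is under 0.05. There are 16 filled points for E0771 and 2 for B16F10, and Col3a1 and Col6a4 are the genes with both filled.

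Whether the effect of MRTFA differed between the lines was tested as a difference of differences over all 18 libraries. It did for 8 of 37 members, 6 with a higher and 2 with a lower log2 change in E0771. That is 21.6%, where 21.1% of all genes tested differed (12.6% higher and 8.55% lower). Among the higher ones, Col4a3, Col4a6 and Col26a1 reached 10 only in E0771 MRTFA libraries, so a higher change is built into that count. Col17a1, among the lower ones, reached 10 in every library only in E0771 controls, so its sign is partly built in too. Col9a2 led them (difference 6.99, SE 0.51, adjusted p = 1.08e-07, limma), and in B16F10 it had 42.9, 39.4 and 51.1 in libraries labelled MRTFB, 68.6, 41.4 and 35.3 in those labelled MRTFA and 52.9, 54.5 and 35.3 in controls. Col27a1 had 200.1, 222 and 239 in B16F10 libraries labelled MRTFB, 223, 189 and 199 in those labelled MRTFA and 139, 214 and 222 in B16F10 controls (difference 3.95, adjusted p = 6.04e-05). Col3a1 differed with the other sign (−3.74, adjusted p = 0.000991). Col6a4 (1.41, 95% interval 0.11 to 2.71), Col4a2 (0.29, −0.50 to 1.09), Col12a1 (−0.68, −2.31 to 0.95) and Col7a1 (0.42, −1.10 to 1.94) did not pass. By edgeR on recovered reads 5 members and 19.1% of all genes differed, Col4a6 and Col26a1 no longer among the members called, and the limma call of Col4a1 (1.05) was lost in most fits that left out 1 of the 12 libraries compared. For MRTFB 0 of 37 members differed between lines, where 0.114% of all genes did, with 0 by edgeR and DESeq2 and 2 members, Col17a1 and Col22a1, at an unadjusted limma p under 0.05 (5.41%, against 5.46% of all genes).

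Replicate number went with large differences in some members, of which Col1a1 and Col8a1 were singled out after their values were seen. In B16F10, replicates 1 to 3 of Col1a1 had 282, 128 and 2434 in libraries labelled MRTFB, 336, 227 and 1902 in those labelled MRTFA and 331, 135 and 1037 in controls. Replicate 3 was highest in every B16F10 group, and its mean over the groups was 10.96-fold the lowest replicate's. In E0771, Col1a1 had 3670.1, 5959 and 1018 with MRTFB, 3460.4, 4088 and 545 with MRTFA and 1373, 2535 and 537 in controls, with replicate 3 lowest in each group. Col8a1, a collagen of vessel walls, was highest in replicate 3 of all 6 groups. One replicate number was highest in all 3 groups of a line for 11 of 29 members in E0771 (37.9%, and 27.4% of all tested genes) and for 12 of 29 in B16F10 (41.4%, and 40.6%). The labels do not say what the number stands for.

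**Figure D5:**
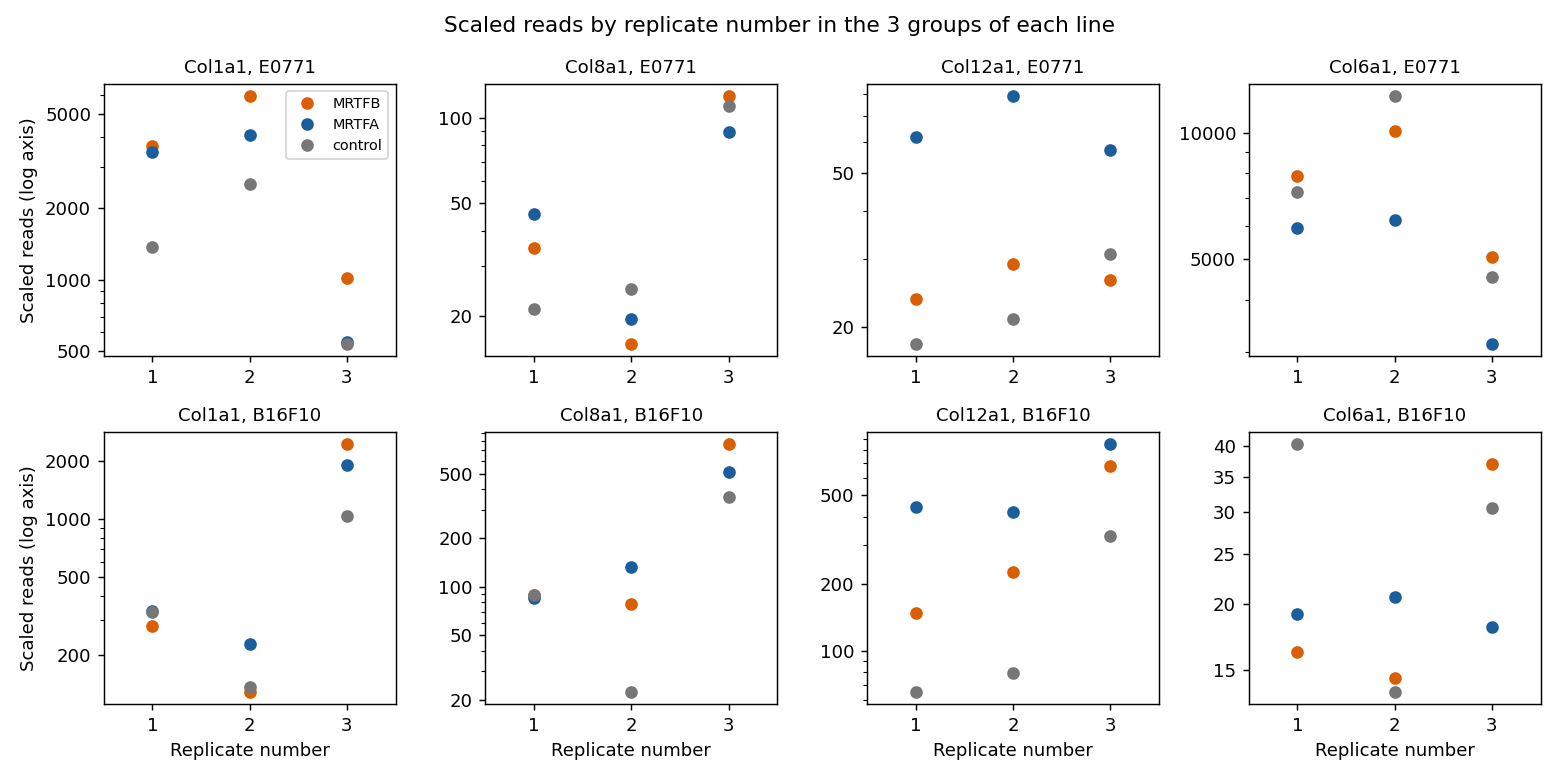
Each panel gives the scaled reads (log axis) of 1 gene in 1 line by replicate number, with 1 point per library coloured by group. Replicate 3 of Col1a1 is the highest in every B16F10 group and the lowest in every E0771 group.

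Genes that fold, export, trim, crosslink and sense collagen were read from 5 lists. With MRTFA in E0771, 11 of the 43 tested rose and 6 fell, or 39.5%. That is near the 38.4% of all genes that passed (20.3% rose and 18.1% fell), and nothing is read from the counts by list. Of 17 folding and modification genes 4 rose: the prolyl isomerase Fkbp14 (88.1 ± 3.66 with MRTFA and 20.7 ± 7.597 in controls, log2 2.10), the lysyl hydroxylase Plod1 (3099 ± 296 with MRTFA and 1695 ± 286 in controls, log2 0.88), the collagen chaperone Serpinh1 (80600 ± 12571 with MRTFA and 48039 ± 10698 in controls, log2 0.76) and the isomerase Ppib (log2 0.28). In the same list 3 fell, among them Colgalt1, which adds galactose to collagen (log2 −0.51), and the prolyl hydroxylase subunit P4ha1 (log2 −0.41). Of 11 export genes Creb3l2, a transcription factor of the secretory pathway, rose (log2 1.05) and Sar1b, of transport vesicles, fell (log2 −0.27). Of 5 propeptide-removal genes Pcolce2 (log2 −0.78) and Pcolce (log2 −0.61), enhancers of procollagen cleavage, fell.

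Of 4 crosslinking genes, the lysyl oxidases Loxl2 (6479 ± 601 with MRTFA and 2740.2 ± 276 in controls, log2 1.24) and Loxl4 (log2 0.54) rose with MRTFA in E0771. Of 6 collagen receptor genes 4 rose: the integrin subunits Itga1 (8897 ± 928 with MRTFA and 465 ± 65.5 in controls, log2 4.26), Itga11 (log2 4.16) and Itgb1 (log2 0.35), and the receptor kinase Ddr2 (log2 0.36). In B16F10 libraries labelled MRTFA, Itga1 was the 1 gene of 42 tested that passed (log2 1.57, adjusted p = 0.00364, limma), where 1.55% of all genes did. With the replicate block 4 of the 42 were higher and 3 lower in those libraries, where 3.98% of all genes were higher and 2.35% lower. In libraries labelled MRTFB 0 were higher and 1 lower with the block, where 1.63% of all genes were higher and 2.83% lower. Without a block no gene of these lists passed with MRTFB in either line by limma, while 1 of 43 in E0771 and 4 of 42 in B16F10 had an unadjusted p under 0.05, where 2.54% of all genes in E0771 and 8.87% in B16F10 did.

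The 6 members under the filter in both lines stayed low. The highest value in any library was 20.9 scaled reads for Col6a5, 19.9 for Col13a1, 16.4 for Col28a1, 11.4 for Col19a1, 9.404 for Col6a6 and 5.98 for Col23a1. Col6a5 had 35 reads with MRTFA in E0771 and 0 in controls, and Col13a1 38 and 5. Among tested members without levels given above, Col2a1, Col5a2, Col8a1, Col9a1, Col9a3, Col10a1, Col11a1, Col11a2, Col14a1 and Col20a1 had group means from 0.348 to 396 scaled reads.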

How the data were processed

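The tools named in the submitters' processing notes are cutadapt 1.6, STAR 2.5.0a, HTSeq 0.5.3 and DESeq, and the build is mm10. The authors deposited a normalized signal per gene and library, whose values are whole multiples of 1 step per library, so that whole reads were recovered within 0.001 read and the step read as the inverse of a size factor. The annotation release, strandedness and counting mode were not stated. Col21a1 and Col25a1 were not analysed here. The members and lists were chosen with earlier results of these data known.

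Groups follow the sample labels. limma 3.58.1 (R 4.3.3, trend) was fitted to log2(scaled reads + 1) per line over 9 libraries, and over 18 for comparisons between lines, with the minimum of 10 in 3 libraries, and was tested on simulated data. Alternatives were no minimum or 50, a pseudocount of 10, upper-quartile and TMM scaling, edgeR 4.0.16 and DESeq2 1.42.0 on recovered reads, a replicate block, and each library left out. Libraries of 1 group differed beyond sampling noise (chi-square per degree of freedom 11.7 to 59.2), so none was taken as a duplicate. Replicate numbers were read as pairing where every same-number correlation of deviations from group means was over 0.1, as for MRTFA (0.353 to 0.567) and MRTFB (0.382 to 0.486) in B16F10, MRTFB in E0771 (0.459 to 0.553) and MRTFB against MRTFA in B16F10 (0.403 to 0.634) and E0771 (0.134 to 0.474).

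All libraries are printed for the 12 members with the lowest adjusted p against control, among those called against control or with a group mean of 1000 or more, and group means for the other 13. Of pathway genes, up to 6 called per list are named. GENCODE M21 (GRCm38) gave positions and exon lengths, matching 18827 of 18909 identifiers.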

Additional observations from a re-analysis of the deposited data

Results flagged for a closer look

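The effect of MRTFA, as MRTFA minus control on the log2 scale, differed between E0771 and B16F10 for 8 members in a test of the difference itself (limma, Benjamini-Hochberg adjusted). Mkl1 did not pass as higher in B16F10 libraries labelled MRTFA, so a difference between lines and a difference in MRTFA level cannot be told apart. Col9a2 differed by 6.99 (adjusted p = 1.08e-07), Col27a1 by 3.95 (6.04e-05), Col4a6 by 3.81 (0.000167), Col26a1 by 3.79 (0.0021), Col4a3 by 3.71 (0.00541) and Col4a1 by 1.05 (0.0446), each with the higher change in E0771. Col4a6, Col26a1 and Col4a3 reached 10 scaled reads only in the E0771 MRTFA libraries, so the sign of their differences is built in. The calls of Col4a6 and Col26a1 were lost under both edgeR and DESeq2, and that of Col4a1 under edgeR, under upper-quartile scaling and in 9 of 12 fits without 1 library. Col3a1 (−3.74, 0.000991) and Col17a1 (−3.87, 0.000297) had the lower change in E0771. Col17a1 averaged 6.03 ± 1.95 in B16F10 libraries labelled MRTFA and 0.9698 ± 0.974 in B16F10 controls, under the filter on low values in that line. In E0771 Col17a1 reached 10 in every library only in the controls, so a lower change there is partly built in.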

How the results depend on the processing

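Of the 62 calls of the 25 members picked by the naming rule (71 calls over all members), 53 were kept under every alternative that tested them and without every library, and 18 of these were not tested with a minimum of 50. With a minimum of 50 scaled reads, fewer members were tested and called: 9 of 18 for MRTFA in E0771, 9 of 18 for MRTFB against MRTFA in E0771, 1 and 1 of 22 for the same comparisons in B16F10, and 4 of 27 for the line difference in the MRTFA effect. That difference was called for 5 members by edgeR, 6 by DESeq2 and 12 with a pseudocount of 10, where 19.1% of all genes were called by edgeR. Its calls were lost under edgeR and DESeq2 for Col4a6 (5.46 and 4.61, adjusted p = 0.116 and 0.0819) and Col26a1 (3.98 and 4.07, adjusted p = 0.287 and 0.152), whose folds were no smaller. Col4a1 was lost under edgeR (0.997), under upper-quartile scaling (0.99) and in 9 of 12 fits without 1 library (0.83 to 1.11 in those). Its value for Col6a4, not called, changed sign to −1.40 under edgeR (adjusted p = 0.429) and −0.82 under DESeq2 (adjusted p = 0.751), and was called higher in E0771 with a pseudocount of 10 (2.85, adjusted p = 1.8e-05) and with a block within each line (1.41, adjusted p = 0.0457). Col17a1 was lost under DESeq2 for MRTFB against MRTFA in E0771 (1.74, adjusted p = 0.0898), and Col6a4 between controls with a pseudocount of 10 (0.54). The cause of these losses was not tested. The replicate block gave 9 members for MRTFA and 6 for MRTFB in B16F10 and 0 for MRTFB in E0771, where 6.33%, 4.46% and 0.25% of all genes were called. Where numbers did not pair the samples (lowest r 0.0842 for MRTFA in E0771, 0.0843 for the controls, −0.0784 and 0.0309 for the line differences in MRTFA and MRTFB effect), it gave 20, 28, 9 and 0 members, where 48.6%, 72.9%, 26.9% and 0.135% of all genes were called. For MRTFA in E0771 the members added were Col1a1 (0.68), Col2a1 (0.92), Col6a1 (−0.60) and Col6a2 (−0.40). A block within each line, added after seeing the data, gave 12 and 0 for the line differences (34.8% and 0.545% of all genes). Leaving out each library in turn gave 14 to 17 members for MRTFA in E0771, 0 to 0 for MRTFB in E0771, 2 to 4 and 0 to 1 for MRTFA and MRTFB in B16F10, 13 to 17 in E0771 and 2 to 2 in B16F10 when MRTFB was set against MRTFA, 25 to 27 for the controls, and 7 to 10 and 0 to 0 for the line differences. Shares of all genes are not given here for the minimum of 50, DESeq2, the pseudocount of 10 or the fits without 1 library. Those counts show only how many members were called and do not set collagens against other genes. An arm of 2 libraries is assumed to vary like the other groups. No scaling moved the median of all genes by more than 0.1. Depth limits members with few reads, whose ratios carry the widest counting intervals.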
